A study of Mus musculus with 2 samples.

Results

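*Gabra2*, *Gabra3*, *Gabra4*, *Gabra5*, *Gabrb1*, *Gabrb2* and *Gabrg3* encode subunits of the GABA-A receptor, and their mRNA was measured in single nuclei of the mouse olfactory bulb. They were chosen by symbol, as 7 of the 31053 genes counted in both libraries. Adult wild-type mice were injected with retroAAV-CAG-H2B-GFP, a retrograde virus with a ubiquitous promoter that marks nuclei green, either in the anterior olfactory nucleus (AON) or in the posterior piriform cortex (pPCx). Green bulb nuclei were sorted and each injection gave 1 library of unique molecular identifiers (UMIs), so that nuclei of 1 library share 1 preparation and no test between groups was possible. A marked nucleus can come from a projection neuron or from another cell that the virus reached. The methods of the study describe 1 female mouse for the pPCx library. The sex and exact age of the AON animal are not given in the sources used here. The X-inactivation transcript *Xist* had 0 UMIs in AON projection neurons and 1744 UMIs in pPCx projection neurons, so that injection site, animal and sex cannot be told apart in any comparison between the libraries, which matters for the X-linked gene *Gabra3* among others.

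GABA-A receptors are chloride channels made of several subunits around a pore. Most hold alpha, beta and gamma subunits. The alpha subunit does much to set the receptor's affinity for GABA, its speed of closing and its place in the membrane, the beta subunits take part in GABA binding, and a gamma subunit is needed for the usual response to benzodiazepines. In the olfactory bulb, mitral and tufted cells are the glutamatergic projection neurons, and they receive dense inhibition from granule and periglomerular cells, which are themselves GABAergic and inhibit one another.

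Classes were set by UMIs of a few genes in nuclei with 1000 or more genes. Projection neurons had more UMIs of *Slc17a7*, *Slc17a6*, *Tbx21* and *Cdhr1* together than of *Gad1*, *Gad2* and *Slc32a1* together. GABAergic nuclei were the reverse, with 3 or more UMIs of the latter genes, and the rest are called remaining nuclei. The AON library kept 102 of 188 barcodes and gave 25 projection neuron, 47 GABAergic and 30 remaining nuclei. The pPCx library kept 63 of 74 barcodes and gave 59 projection neuron, 2 GABAergic and 2 remaining nuclei, and the last 4 are too few to describe. No barcode was shared by the libraries. The median nucleus held 38129 UMIs in AON projection neurons, 34306 in pPCx projection neurons, 26129 in AON GABAergic nuclei and 14336 in AON remaining nuclei. A single AON projection neuron had 274993 UMIs, or 24.6% of its class. Markers that the rule did not use followed the names of projection neurons and GABAergic nuclei. The summed level of *Eomes*, *Reln*, *Thy1*, *Lbhd2* and *Slc17a8* was 2633 CPM (UMIs of the gene per 1000000 UMIs) in AON and 2713 CPM in pPCx projection neurons, against 60.6 CPM in AON GABAergic nuclei, and *Slc17a8* was at 0 in both projection neuron classes. The summed level of 10 GABAergic markers was 4935 CPM in AON GABAergic nuclei, 63.5 CPM in AON and 82.9 CPM in pPCx projection neurons. Remaining AON nuclei stood between these, at 1134 CPM with a median nucleus of 719 CPM. Among remaining AON nuclei, 18 were astrocyte-like and 9 oligodendrocyte-like by their markers.

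The AON projection neuron class was less uniform than its name. Of its 25 nuclei, 8 had only 1 or 2 excitatory UMIs, against 1 of 59 in pPCx. In 2 of these 8 the 7 astrocyte markers stood at 6958 CPM and 6056 CPM, against a median of 59.6 CPM in the class, and these nuclei had 0 and 1 *Reln* UMIs. The reporter row eGFP had 1 UMI in each of the 4 classes described here, so that the label itself could not be checked from the counts.

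Of the 7 genes, 4 code for alpha subunits, and the contrast between *Gabra2* and *Gabra3* carries most of what follows. Their promoters are shown because the first of these genes differed most between the projection neuron libraries and the second little. Each run is the 250 bases before the RefSeq transcript start (GRCm38.p6), 5′ to 3′ on the gene's strand, with CG dinucleotides in capitals. The *Gabra2* window is chr5:71095850-71096099 and the *Gabra3* window is chrX:72656920-72657169, both on the minus strand.
Gabra2: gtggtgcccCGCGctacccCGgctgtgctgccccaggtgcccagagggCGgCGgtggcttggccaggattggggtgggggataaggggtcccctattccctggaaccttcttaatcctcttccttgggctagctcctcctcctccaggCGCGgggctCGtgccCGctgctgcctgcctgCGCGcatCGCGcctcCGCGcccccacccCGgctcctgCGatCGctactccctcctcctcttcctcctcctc
Gabra3: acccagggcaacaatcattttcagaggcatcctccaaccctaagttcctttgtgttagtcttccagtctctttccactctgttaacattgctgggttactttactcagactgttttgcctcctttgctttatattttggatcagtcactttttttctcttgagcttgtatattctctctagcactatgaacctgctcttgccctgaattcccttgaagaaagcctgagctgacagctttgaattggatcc
RefSeq has 2 starts for *Gabra3*. The one farther upstream is shown, and the 30 bases after it are in no GENCODE M21 transcript of the gene, unlike those after the other start, whose window (chrX:72656808-72657057) was 39.2% G and C and also held 0 CG dinucleotides. The *Gabra2* window was 70% G and C and held 18 CG dinucleotides, whereas the *Gabra3* window was 42.4% G and C and held 0. The letters CCCNNGGG are a core motif of the EBF transcription factors that reads the same on both strands. They were searched because *Ebf1* RNA tracked *Gabra2* RNA across the pPCx projection neurons (Pearson 0.86). Within either group of these nuclei in the split described below, the value was 0.04. The motif was in 0 of the windows of the 7 genes and in 11.8% of 32851 promoters of that length. The T-box motif AGGTGTGA, searched on both strands, was also in 0 windows of the 7 genes and in 1.12% of all promoters. These counts describe the letters of these windows and no more.

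The genes lie on 4 chromosomes in the GENCODE M21 annotation of GRCm38. *Gabra2* (chr5:70957597-71095849, minus strand), *Gabra4* (chr5:71569749-71658308, minus strand) and *Gabrb1* (chr5:71658113-72149037, plus strand) form a cluster in which *Gabra4* and *Gabrb1* overlap by 196 bases at their starts. *Gabrg3* (chr7:56716465-57387188) and *Gabra5* (chr7:57407672-57510059) lie on the minus strand 20.5 kb apart. Whether strand was used in counting is not given in the sources used here, so that the split of reads between overlapping genes is uncertain. *Gabrb2* lies at chr11:42419757-42629028 on the plus strand and *Gabra3* at chrX:72432681-72656848 on the minus strand.

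*Gabra2*, an alpha subunit common at forebrain synapses, was the member that separated the projection neurons of the libraries most. Its level was 34.9 CPM (39 UMIs, 95% Poisson interval 24.8 to 47.7) in AON projection neurons and 795 CPM (1852 UMIs, 760 to 832) in pPCx projection neurons. The single nuclei ran from 0 through a median of 17.3 to 713 CPM in AON and from 0 through a median of 590 to 2499 CPM in pPCx. The ranges overlap, but 1 of 25 AON nuclei lay above the pPCx median. That nucleus, with 10 of the 39 UMIs, was 1 of the 2 with high astrocyte markers, and of the 17 AON nuclei with 3 or more excitatory UMIs 0 lay above the pPCx median and the highest had 90.3 CPM. AON GABAergic nuclei had 529 CPM (672 UMIs, 489 to 570), with 46 of 47 nuclei holding a UMI, and AON remaining nuclei had 219 CPM, most of it from astrocyte-like nuclei at 364 CPM against 5.43 CPM in oligodendrocyte-like nuclei. The order was therefore pPCx projection neurons, AON GABAergic nuclei, remaining nuclei and AON projection neurons, with no overlap of the counting intervals between neighbours. These intervals, here and below, cover counting error only and not differences between animals or preparations. In bulk sums such as these, fewer cells with the RNA and less RNA per cell cannot be told apart, which is why the values of single nuclei stand beside them.

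*Gabra3*, an X-linked alpha subunit, had similar levels in the projection neurons of both libraries. It stood at 347 CPM (388 UMIs, 314 to 384) in AON and 415 CPM (966 UMIs, 389 to 442) in pPCx, and these counting intervals do not overlap. Single nuclei ran from 0 through 154 to 1538 CPM in AON and from 0 through 409 to 1457 CPM in pPCx, so the spread among nuclei was far wider than the difference. AON GABAergic nuclei had 56.6 CPM (72 UMIs) and remaining nuclei 14.6 CPM (7 UMIs), of which astrocyte-like nuclei had 2 UMIs. Both projection neuron classes thus lay above both other classes, and 58 of 59 pPCx projection neurons held a UMI of it.

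*Gabra4*, often found outside synapses, varied least between the classes in its summed level. Its level was 87.7 CPM (98 UMIs, 71.2 to 107) in AON projection neurons, 85.5 CPM (199 UMIs, 74.0 to 98.2) in pPCx projection neurons, 135 CPM (171 UMIs, 115 to 156) in GABAergic nuclei and 60.4 CPM (29 UMIs, 40.5 to 86.8) in remaining nuclei. The intervals of both projection neuron classes overlap each other and that of the remaining nuclei. The deepest AON projection neuron gave 37.8% of the AON sum, and the mean over nuclei was 59.3 CPM in AON and 94.2 CPM in pPCx projection neurons. *Gabra5*, an alpha subunit known for tonic inhibition, was close to 0 outside GABAergic nuclei. It had 8.05 CPM (9 UMIs, 3.68 to 15.3) in AON projection neurons, 8.59 CPM (20 UMIs, 5.25 to 13.3) in pPCx projection neurons and 6.25 CPM (3 UMIs, 1.29 to 18.3) in remaining nuclei, 3 levels whose intervals overlap. AON GABAergic nuclei had 323 CPM (411 UMIs, 293 to 356), with a median nucleus of 199 CPM, and 0 of the 25 AON and 0 of the 59 pPCx projection neurons lay above that median.

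The 2 beta subunits had different patterns. *Gabrb1* was at 2890 CPM (6730 UMIs, 2822 to 2960) in pPCx projection neurons and at 1076 CPM (1202 UMIs, 1016 to 1138) in AON projection neurons. Of the AON UMIs, 843 (70.1%) came from the deepest nucleus, and the nuclei ran from 0 through a median of 197 to 7753 CPM, where the nucleus at the top was the other one with high astrocyte markers. In pPCx the range was 292 through 2837 to 8716 CPM, all 59 nuclei held a UMI, and 3 of 25 AON nuclei lay above this median. Remaining AON nuclei had 2708 CPM (1299 UMIs, 2562 to 2859), nearly all of it in astrocyte-like nuclei at 4739 CPM (269 through 4034 to 11388 CPM in single nuclei), while oligodendrocyte-like nuclei had 38.0 CPM. AON GABAergic nuclei were lowest, at 390 CPM (496 UMIs, 357 to 426). The intervals of pPCx projection neurons and remaining nuclei overlap and the others do not.

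*Gabrb2* was higher in projection neurons of both libraries than in the other classes. It had 1400 CPM (1564 UMIs, 1331 to 1471) in AON and 773 CPM (1799 UMIs, 737 to 809) in pPCx projection neurons, then 76.3 CPM (97 UMIs, 61.9 to 93.1) in GABAergic and 8.34 CPM (4 UMIs, 2.27 to 21.3) in remaining nuclei. Median nuclei had 734, 494, 0 and 0 CPM in that order. The nucleus with 274993 UMIs gave 36.5% of the AON *Gabrb2* sum, and 14 of the 17 AON nuclei with 3 or more excitatory UMIs lay above the pPCx median. *Gabrg3*, a gamma subunit, came mostly from few nuclei among projection neurons, while in GABAergic nuclei the top nucleus held 20.7% of its UMIs. It was seen in similar shares of nuclei, 15 of 25 AON and 34 of 59 pPCx projection neurons and 30 of 47 GABAergic nuclei. Its level was 508 CPM (646 UMIs, 470 to 549) in GABAergic nuclei, 277 CPM (310 UMIs, 247 to 310) in AON projection neurons, 119 CPM (277 UMIs, 105 to 134) in pPCx projection neurons and 98.0 CPM (47 UMIs, 72.0 to 130) in remaining nuclei, and the last 2 intervals overlap. A single nucleus held 61.9% of the AON and another 62.8% of the pPCx projection neuron UMIs, and the median nuclei of these classes were close, at 19.9 CPM and 18.1 CPM.

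**Figure D1:**
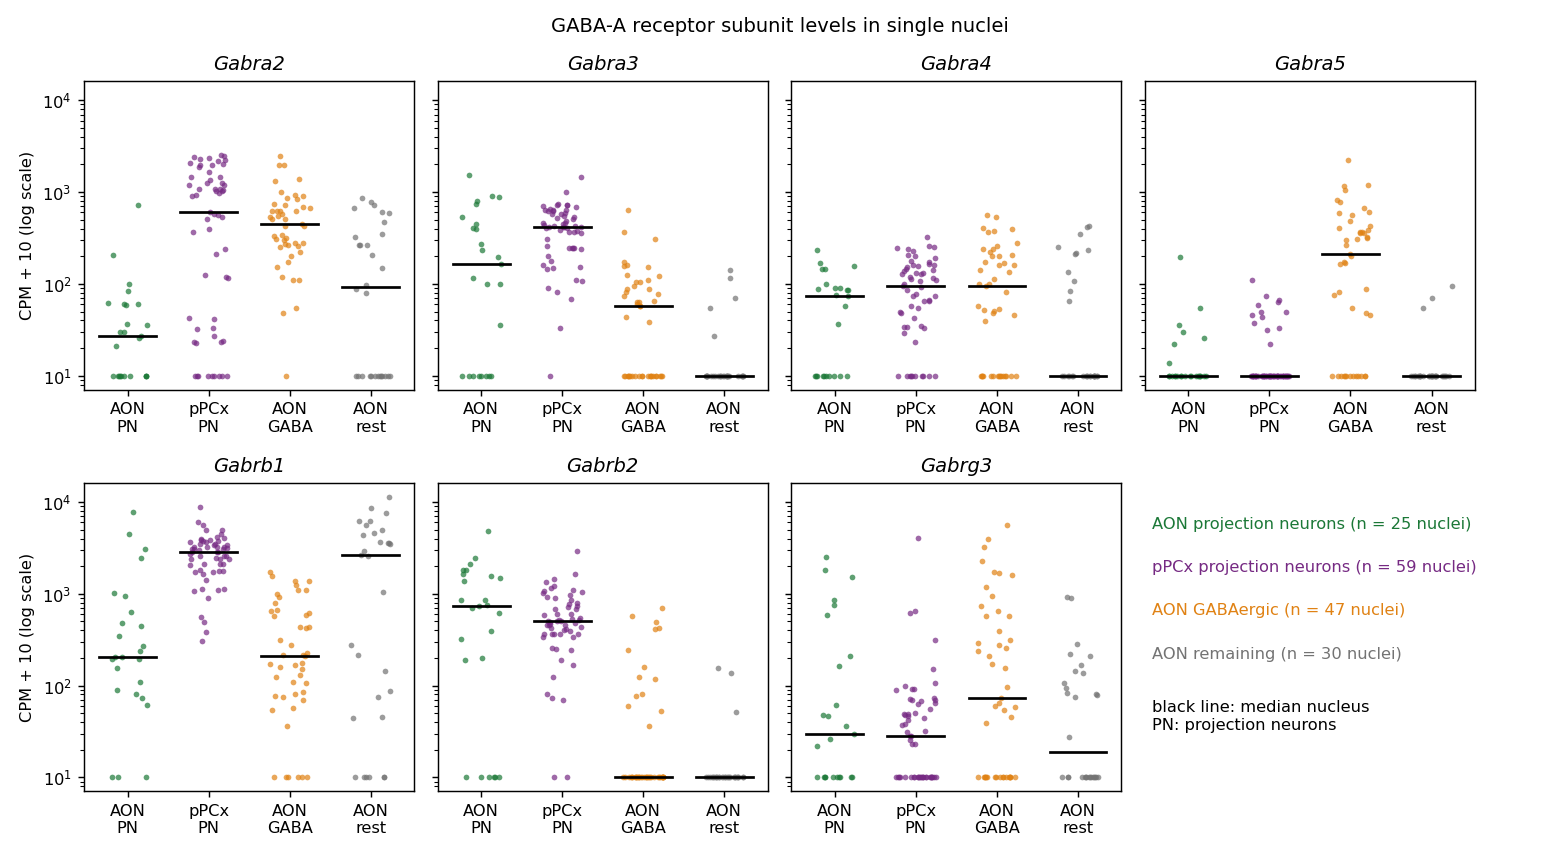
Level of each subunit gene in every nucleus (CPM with 10 added, log scale) for the 4 classes; each point is 1 nucleus and the black line is the median nucleus. Of 25 AON projection neurons, 1 lies above the pPCx median for *Gabra2* and 3 for *Gabrb1*. The *Gabra2* points of pPCx are split, and the 22 of 59 nuclei low in *Ebf1* and *Cntn6* (below) have a median of 13.1 CPM, near the 17.3 CPM of AON. *Gabra5* points are high in GABAergic nuclei, and *Gabrb2* medians are 734 and 494 CPM in projection neurons and 0 elsewhere.

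The question of how the injection sites differ was put to the projection neurons of both libraries as log2 ratios of CPM, with 0.5 UMI added to each sum. A gene is called here when it passed 2-fold and had 10 or more UMIs over both groups. *Gabra2* was 22.8-fold higher in pPCx (log2 ratio of AON over pPCx -4.49, 95% counting interval -5.01 to -4.05) and *Gabrb1* 2.69-fold higher in pPCx (-1.43, -1.52 to -1.34). *Gabrg3* was 2.33-fold higher in AON (1.22, 0.98 to 1.46). The other members stayed within 2-fold, with *Gabrb2* at 0.86 (0.76 to 0.96), *Gabra3* at -0.26 (-0.43 to -0.09), *Gabra4* at 0.04 (-0.33 to 0.39) and *Gabra5* at -0.05 (-1.41 to 1.11). So 1 of 7 members was called higher in AON, where 8.51% of 13677 genes were, and 2 of 7 higher in pPCx, where 12.4% were. Without nuclei of over 3 times the median UMIs the *Gabrb1* log2 ratio was -2.75, and without the nucleus with most *Gabrg3* UMIs in each group the *Gabrg3* levels were 113 CPM and 45.1 CPM, a log2 ratio of 1.33. *Gabra2* and *Gabra4*, neighbours on chromosome 5 with 474 kb between them, thus had log2 ratios of -4.49 and 0.04.

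Other inhibitory genes were taken from lists. Of 9 other GABA-A subunit genes 0 reached 10 UMIs over the projection neurons of both libraries. Of 10 genes of the inhibitory postsynapse, 1 was called, *Plcl1*, which binds GABA-A receptors and phosphatases in the cell, at 245 CPM in AON and 116 CPM in pPCx (1.08, 0.83 to 1.33), a share near the 8.51% over all genes. Without the nucleus with most *Plcl1* UMIs in each group it stood at 191 and 102 CPM (0.90), within 2-fold. Its level was uneven among pPCx projection neurons and is given below with the *Ebf1* and *Cntn6* split. *Gphn*, which makes the gephyrin scaffold, stood at 0.63 (0.56 to 0.71). *Gabbr1* and *Gabbr2* of the GABA-B receptor (0.05 and -0.44) and the chloride transporters *Slc12a5* and *Slc12a2* (0.23 and 0.54) did not pass 2-fold.

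Within the AON library, projection neurons were set against GABAergic nuclei, which asks how receptor composition differs between the output neurons and the interneurons of the same preparation. *Gabrb2* was 18.3-fold higher (log2 ratio 4.19, 3.90 to 4.51) and *Gabra3* 6.13-fold higher (2.61, 2.25 to 3.00) in projection neurons. *Gabra5* was 40.1-fold higher (-5.25, -6.47 to -4.39) and *Gabra2* 15.1-fold higher (-3.90, -4.43 to -3.45) in GABAergic nuclei. *Gabrb1* was also called higher in projection neurons (1.46, 1.31 to 1.62), but without nuclei of over 3 times the median UMIs its ratio was 0.13. *Gabra4* (-0.61) and *Gabrg3* (-0.87) stayed within 2-fold, although *Gabrg3* stood at -1.87 without the nucleus with most of its UMIs in each group. In all, 3 of 7 members were called higher in projection neurons and 2 of 7 in GABAergic nuclei, where the shares over 12272 genes were 16.5% and 16.8%. The pPCx projection neurons, set against the same AON GABAergic nuclei across libraries, had *Gabra2* at 0.59 (0.46 to 0.72), *Gabra3* at 2.86, *Gabra5* at -5.20, *Gabrb1* at 2.89, *Gabrb2* at 3.33 and *Gabrg3* at -2.09. The low *Gabra2* relative to interneurons was therefore found in the AON projection neurons and not in the sum of those of pPCx, and the comparisons share the GABAergic nuclei. The median ratio of genes with many UMIs lay at -0.16 in the comparison across libraries.

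Of these 9 other GABA-A subunit genes, 2 reached 10 UMIs in this comparison and both passed 2-fold. *Gabrg1* (1 and 21 UMIs) and *Gabrd* (1 and 34 UMIs), the delta subunit of extrasynaptic receptors, were higher in GABAergic nuclei. The chloride importer *Slc12a2* was lower in projection neurons (-1.35, -1.73 to -0.99), while the exporter *Slc12a5* was within 2-fold (0.54, 0.15 to 0.93).

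Against the remaining AON nuclei, *Gabrb2* (7.22, 6.03 to 9.27), *Gabra3* (4.47, 3.52 to 5.90) and *Gabrg3* (1.49, 1.06 to 1.98) were called higher in projection neurons, and *Gabra2* (-2.64, -3.22 to -2.11) and *Gabrb1* (-1.33, -1.45 to -1.22) higher in remaining nuclei. Without the nucleus with most *Gabrg3* UMIs in each group that gene stood at 0.70. The shares over 11312 genes were 18.5% and 25.2%. The median ratio of genes with many UMIs was shifted to -0.46 in this comparison, and relative to that shift *Gabrb1* stood at -0.87. Without nuclei of over 3 times the median UMIs, among them the one with most *Gabrb1* UMIs, its ratio was -2.85. *Gabra4* (0.52, -0.07 to 1.19) and *Gabra5* (0.22, -1.64 to 2.89) were within 2-fold with intervals that reach past it.

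**Figure D2:**
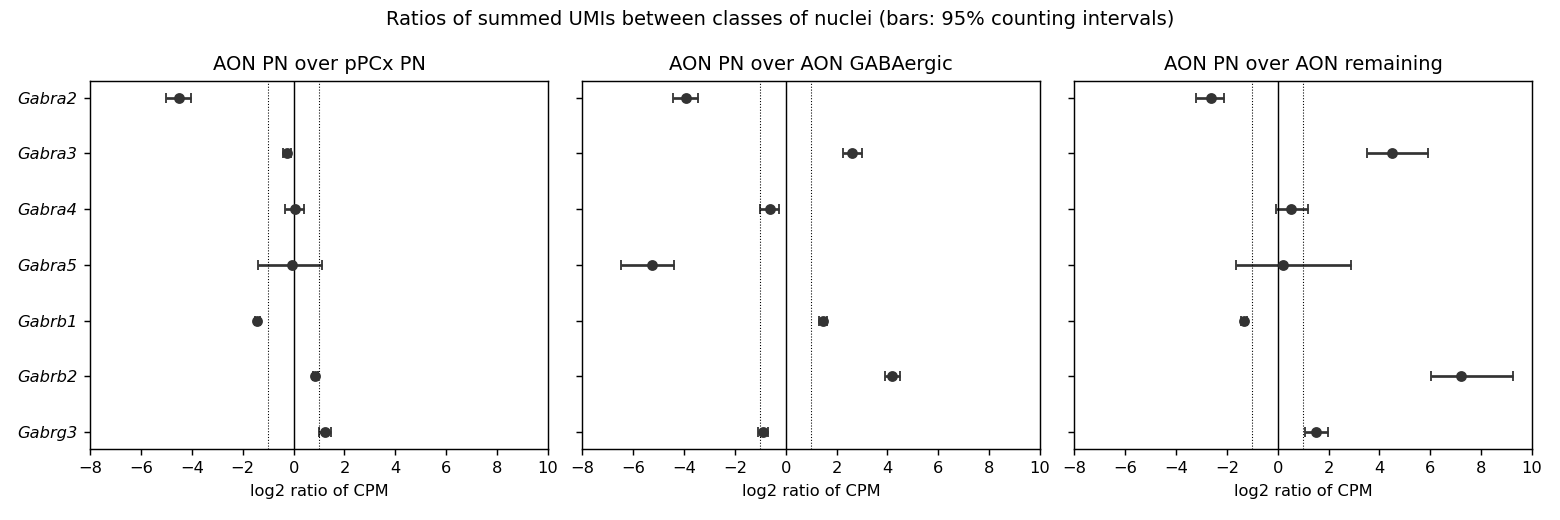
Log2 ratios of AON projection neurons (PN) over pPCx projection neurons, AON GABAergic nuclei and AON remaining nuclei; points are ratios of summed CPM, bars 95% counting intervals and dotted lines 2-fold. *Gabra2* lies left of the dotted line in all 3 panels (-4.49, -3.90 and -2.64), and *Gabra5* in the GABAergic panel alone (-5.25).

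Deeper nuclei show more genes, so each nucleus was also thinned to 5000 UMIs, which left out 3 AON projection neurons and 2 remaining nuclei that were shallower. At that depth 81.8% of 22 AON and 79.7% of 59 pPCx projection neurons still had a *Gabrb2* UMI, as did 23.4% of 47 GABAergic nuclei and 0 of 28 remaining nuclei (exact 95% interval up to 12.3%). A *Gabra3* UMI was found in 59.1%, 84.7%, 23.4% and 0% in the same order. For *Gabra2* the shares were 18.2% in AON and 59.3% in pPCx projection neurons, 74.5% in GABAergic and 46.4% in remaining nuclei. For *Gabra5* they were 0%, 6.78%, 46.8% and 0%. *Gabra4* was seen in 9.09%, 37.3%, 42.6% and 21.4%, and *Gabrg3* in 31.8%, 16.9%, 55.3% and 35.7%. *Gabrb1* was seen in 63.6%, 98.3%, 59.6% and 67.9%. Without thinning the share for *Gabra2* was 60% in AON and 84.7% in pPCx projection neurons, and the share for *Gabrb2* 76% and 96.6%. Each depth was a single random draw of UMIs, and the zeros in remaining nuclei hold for the draw at 5000. At 10000 UMIs *Gabra3*, *Gabra5* and *Gabrb2* were each seen in 2 of 24 remaining nuclei. At the lower depth of 3000 UMIs *Gabrb2* was seen in 2 of 29 of them, *Gabra5* in 1 and *Gabra3* in 0.

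The proportions of the 4 alpha members were taken in each nucleus with 10 or more of their UMIs, which held for 13 of 25 AON projection neurons, 53 of 59 pPCx projection neurons and 40 of 47 AON GABAergic nuclei. In AON projection neurons *Gabra3* made up a median of 80% of these UMIs (0% to 98.0%), *Gabra4* 13.6%, *Gabra2* 4.29% and *Gabra5* 0%. *Gabra3* led in 10 nuclei, *Gabra4* in 2 and *Gabra2* in 1, the last being the nucleus with high astrocyte markers named above. In pPCx projection neurons *Gabra2* made up a median of 60.7% (0% to 93.8%), *Gabra3* 28.7% (4.08% to 96.8%), *Gabra4* 6.77% and *Gabra5* 0%. *Gabra2* led in 32 nuclei and *Gabra3* in 20, with 1 tie, and no nucleus was led by another member. The quartiles of the *Gabra2* share there were 7.69% and 74.6%, so that the median describes few nuclei. In GABAergic nuclei *Gabra2* made up a median of 55.5%, *Gabra5* 23.4%, *Gabra4* 7.69% and *Gabra3* 5.02%. *Gabra2* led in 25 of them, *Gabra5* in 12, *Gabra4* in 2 and *Gabra3* in 0, with 1 tie.

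Shares compare UMIs between genes, and in nuclei the number of UMIs per transcript may vary with gene length. Per kilobase of gene, the medians were 63.0% *Gabra3*, 27.3% *Gabra4* and 5.11% *Gabra2* in AON projection neurons, 68.9% *Gabra2*, 18.9% *Gabra3* and 11.0% *Gabra4* in pPCx projection neurons, and 48.1% *Gabra2* and 26.8% *Gabra5* in GABAergic nuclei, with the same leading gene in each class. The shares are of the 4 alpha members alone, and a share over all alpha subunit genes can only be equal or lower.

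**Figure D3:**
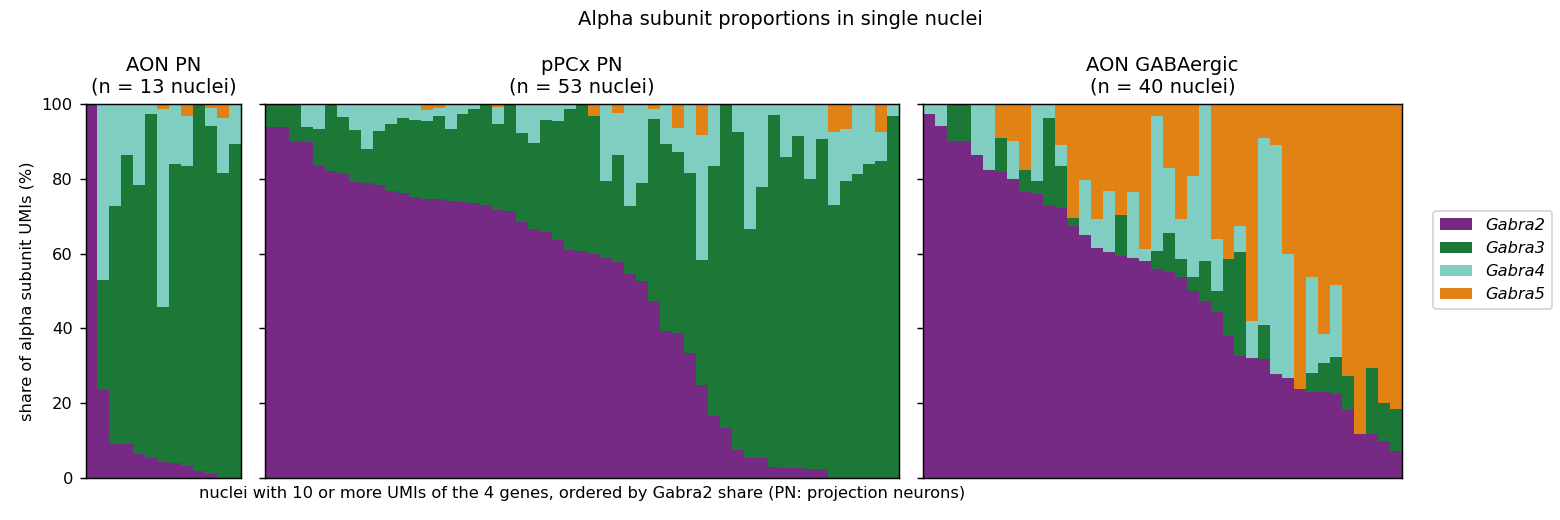
Share (%) of the UMIs of *Gabra2*, *Gabra3*, *Gabra4* and *Gabra5* in each nucleus with 10 or more of them, ordered by the *Gabra2* share within each class; each column is 1 nucleus. *Gabra3* leads in 10 of 13 AON projection neurons, *Gabra2* in 32 of 53 and *Gabra3* in 20 of 53 pPCx projection neurons, and *Gabra5* in 12 of 40 GABAergic nuclei.

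The wide *Gabra2* range in pPCx projection neurons followed *Ebf1*, a transcription factor, and *Cntn6*, a neuronal adhesion protein. Their summed UMIs split the 59 nuclei at 10 per 10000 UMIs into 37 high and 22 low nuclei, with 1.00 as the highest value below and 14.3 as the lowest above. *Ebf1*, *Cntn6* and *Gabra2* were known from earlier results of these data to go together, so the values are a description. *Gabra2* stood at 1404 CPM (1830 UMIs, 23.5 through 1194 to 2499 CPM in single nuclei) in the high nuclei and at 21.5 CPM (22 UMIs, 0 through 13.1 to 497 CPM) in the low nuclei, a ratio of 65.4-fold. The low nuclei were near the AON projection neurons at 34.9 CPM, with a CPM ratio of 0.62 (exact counting interval 0.35 to 1.06). *Gabrg3* was also past 2-fold (160 and 67.3 CPM), but 174 of the 208 UMIs in the high group came from 1 nucleus. Without the nucleus with most of its UMIs in each group *Gabrg3* stood at 27.0 CPM in high and 43.7 CPM in low nuclei (log2 ratio -0.69), so that the direction turned. *Gabrb2* was 2.04-fold higher in the low nuclei (530 and 1081 CPM), with medians of 468 and 650 CPM. With equal weights per nucleus *Gabra2* kept a log2 ratio of 4.62, while *Gabrg3* (0.55) and *Gabrb2* (-0.74) were within 2-fold. Of the 7 members 2 were called higher in the high and 1 in the low nuclei, where 12.4% and 6.83% of 12331 genes were. Without the top nucleus for each member in each group these counts were 1 and 0, and the member left was *Gabra2*.

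The other members were within 2-fold on this split. *Gabrb1* had 3642 CPM in high and 1935 CPM in low nuclei (log2 ratio 0.91, 0.84 to 0.99), and the low nuclei were 1.80-fold (1.67 to 1.93) above AON projection neurons, or 4.54-fold above them without the AON nucleus with most *Gabrb1* UMIs. *Gabra3* had 479 and 334 CPM (0.52, 0.33 to 0.71), the latter close to the 347 CPM of AON projection neurons at a CPM ratio of 0.96 (0.83 to 1.11). *Gabra4* (0.59, 0.17 to 1.04) and *Gabra5* (0.21, -1.17 to 1.73) had wider intervals. Among nuclei with 10 or more alpha UMIs, *Gabra2* led in 31 of 36 high nuclei with a median share of 73.3% and *Gabra3* in the other 5. *Gabra3* led in 15 of 17 low nuclei with a median share of 81.3%, close to the 80% of AON projection neurons. Of the other inhibitory genes, *Plcl1* stood at 22.2 CPM in high and 235 CPM in low nuclei (log2 ratio -3.38, -4.01 to -2.84). The low nuclei were near the 245 CPM of AON projection neurons, at a CPM ratio of 0.96 (0.80 to 1.14). *Gabbr2* went the other way, at 26.9 and 10.7 CPM (1.28, 0.31 to 2.45), with a median of 0 in both groups. Of its 35 UMIs in the high group, 15 came from 1 nucleus, so that this ratio leans on a single nucleus.

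**Figure D4:**
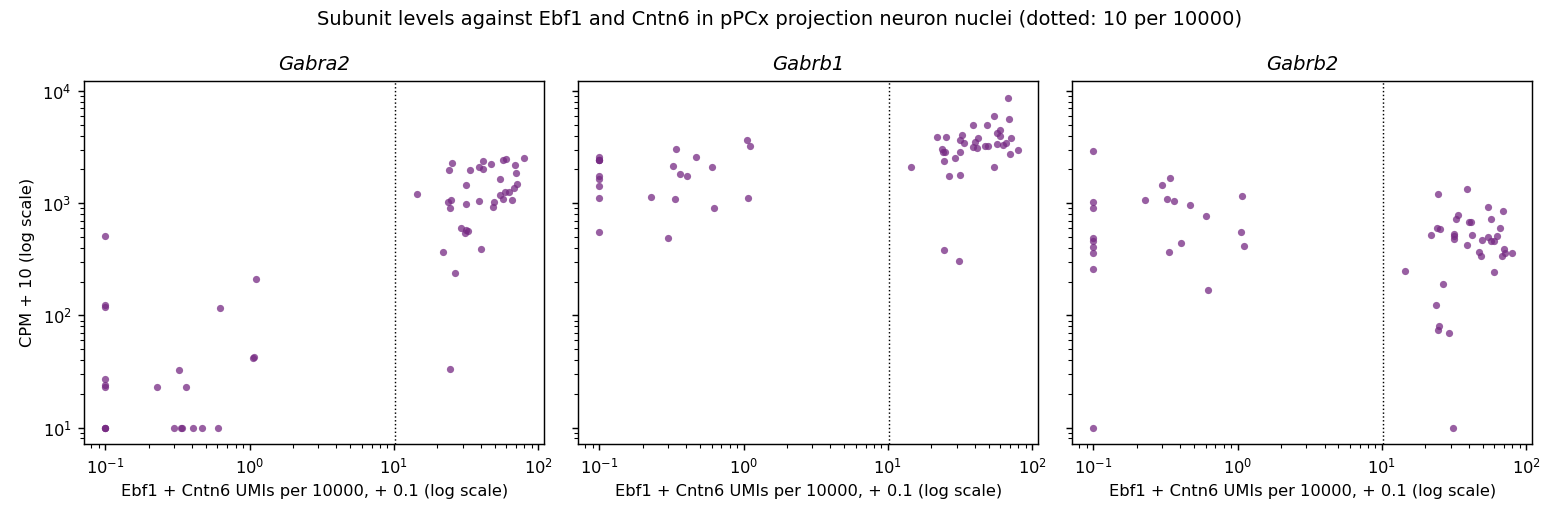
Levels of *Gabra2*, *Gabrb1* and *Gabrb2* (CPM with 10 added, log scale) against the summed *Ebf1* and *Cntn6* UMIs per 10000 (0.1 added, log scale) in the 59 pPCx projection neurons; each point is 1 nucleus and the dotted line is the split at 10. No nucleus lies between 1.00 and 14.3, and *Gabra2* is at 1404 CPM to the right of the gap and 21.5 CPM to the left.

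Across the 59 pPCx projection neurons, on log2 of UMIs per 10000 with 1 added, the members paired weakly. *Gabra2* and *Gabrb1* had the highest correlation (Pearson 0.59), which was 0.56 in the 37 high and 0.13 in the 22 low nuclei. *Gabra2* and *Gabrg3* stood at -0.26 over all nuclei (Spearman -0.16) and -0.55 in the high nuclei. In the high nuclei 174 of the 208 *Gabrg3* UMIs came from 1 nucleus, which held 1 *Gabra2* UMI. All nuclei come from 1 library and differ in depth, so these values describe that library. Of 3591 genes, those nearest *Gabra2* were *Cntn6* (0.92), *Ebf1* (0.86) and *Dpyd* (0.81), and within the high nuclei these values were 0.66, 0.04 and 0.48. In the 47 AON GABAergic nuclei the highest pair was *Gabrb1* with *Gabrg3* (0.47), and *Gabra2* with *Gabra5* stood at -0.21.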

How the data were processed

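Sorted nuclei of 1 AON and 1 pPCx library were measured by 10x Chromium 3′ single-nucleus RNA-seq. The authors deposited raw UMI counts per gene and nucleus made with Cell Ranger, and the matrix header gives version 3.1.0. The submitters' processing notes name the human builds GRCh38 and hg19, while the gene identifiers are mouse, so the build used for these libraries is unclear. The strand setting of the counting is not given in the sources used here. Of 31053 gene identifiers, 30934 were found in GENCODE M21, from which positions were taken. The methods of the study do not describe the AON library, so its preparation is known from the labels alone.

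Nuclei with 1000 or more genes were kept (highest mitochondrial share 0.93%), and no doublet caller was run. UMIs were summed per class and library and scaled to CPM. Sums carry exact Poisson intervals, ratios exact conditional intervals with 0.5 UMI added to each sum for the log2 value, and shares Clopper-Pearson intervals, all at 95% and covering counting error only. With 1 library per group there is no replicate check and no p-value is given. A remaining nucleus was called astrocyte-like or oligodendrocyte-like where that marker list had 3 or more UMIs and more than any other glial list. All 7 genes of the rule are named, with other inhibitory genes from lists, and nearest genes were the 3 with the highest Pearson correlation among genes with 100 or more UMIs. The members and lists were chosen with earlier results of these data known. The ratio step was checked on simulated counts. Python 3.11.15, numpy 2.4.6, scipy 1.17.1, pandas 2.3.3 and matplotlib 3.10.9 were used. Alternatives covered other filters, class limits, added UMIs, weights, scalings and thinning depths. Some genes of the lists, and 1 alternative that adds to the alpha subunit shares, are not reported here.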

Additional observations from a re-analysis of the deposited data

Results flagged for a closer look

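Barcodes with fewer than 1000 genes entered no comparison, yet members were counted in them above 3 UMIs, the limit that a count of 0 allows. The 86 such barcodes of the AON library, with a median of 775 UMIs, held 6 UMIs of *Gabra2*, 14 of *Gabra3*, 8 of *Gabra4*, 80 of *Gabrb1*, 63 of *Gabrb2* and 13 of *Gabrg3*. A single barcode gave 35 of the *Gabrb1* UMIs. The 11 such barcodes of the pPCx library held 5 UMIs of *Gabrb2*. The source of these UMIs was not tested.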

How the results depend on the processing

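No paired analysis was possible because a group is a single library. The *Gabra2* ratio kept its direction past 2-fold under all alternatives run (-4.94 to -3.91 for AON over pPCx projection neurons, -4.34 to -3.33 against GABAergic -3.06 to -1.96 against remaining nuclei and 4.62 to 6.37 for *Ebf1* and *Cntn6* high over low nuclei), as did *Gabra3* and *Gabrb2* against GABAergic and remaining nuclei, *Gabra5* against GABAergic nuclei, and *Gabrb1* (-2.75 to -1.41) and *Gabrg3* (1.16 to 1.51) between the libraries. *Gabrb1* against GABAergic nuclei ranged from 0.13 to 1.49 and against remaining nuclei from -2.85 to -0.87. *Gabrg3* against GABAergic nuclei ranged from -1.87 to -0.51 and against remaining nuclei from 0.70 to 1.95. *Gabra4* and *Gabra5*, within 2-fold between the libraries and against remaining nuclei, took either sign there. Leaving out the nucleus with most UMIs of the gene was chosen after seeing the data. With the median ratio set to 0, 1 member and not 2 was higher in remaining nuclei. Per kilobase, the median *Gabra4* share was 27.3% in AON and 11.0% in pPCx projection neurons, and the *Gabra3* share 18.9% in pPCx. From summed UMIs the *Gabra5* share in pPCx was 0.57%, where the median nucleus was at 0. Members with a UMI in over 50% of nuclei numbered 3 at 5000 UMIs in AON projection neurons and in GABAergic nuclei, 6 in each without thinning, and 1 in AON projection neurons at 3000 UMIs. With equal weights per nucleus, 1 member was higher in *Ebf1* and *Cntn6* high nuclei and 0 in low nuclei, as without the nucleus with most UMIs of the gene in each group, where *Gabrg3* turned from 1.24 to -0.69. Depth limits *Gabra5* in projection neurons most, at 9 and 20 UMIs.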

Other observations

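*Gabrg3* RNA was concentrated in few projection neurons of both libraries. The 3 AON nuclei with most *Gabrg3* UMIs (192, 46 and 23) held 84.2% of the class, and they were also the 3 AON projection neurons with most *Ebf1* and *Cntn6* UMIs together (84, 27 and 24). Their *Gabra3* UMIs were 0, 5 and 1, and their *Gabra2* UMIs 2, 4 and 2. In pPCx the 3 nuclei with most *Gabrg3* UMIs (174, 26 and 19) held 79.1% of the class. The first of them had 104 *Ebf1* and *Cntn6* UMIs but 1 *Gabra2* UMI, and the others had 0 and 3 *Ebf1* and *Cntn6* UMIs. These nuclei were chosen by the *Gabrg3* values, and nothing was tested on them.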
